A study of Rattus norvegicus with 6 samples.

Results

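Mitochondrial ribosomal proteins are encoded in the nucleus, and the genes described here are those whose platform symbol begins with Mrpl (large subunit) or Mrps (small subunit) followed by a number. Such a symbol stood on 72 single-gene rows of the deposited values. They covered 68 genes out of 14506 genes in all, and of several rows for 1 gene the one with the largest average signal was kept. A row that named Mrpl20 together with a second gene was left out.

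The mitochondrial ribosome (mitoribosome) translates the few proteins that mitochondrial DNA encodes, all of them subunits of the respiratory chain and ATP synthase. Its RNAs come from mitochondrial DNA, while its proteins are made in the cytosol and imported. About the ancestral core, shared with bacterial ribosomes, lies a shell of proteins found in mitochondria and not in bacteria. Muscle depends on this machinery for its oxidative capacity.

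RNA from gastrocnemius muscle of male Sprague-Dawley rats was hybridised to Affymetrix Rat Gene 1.0 ST arrays, which probe whole transcripts. All rats were diet-induced obese, ate a high-fat, high-sucrose diet with an energy density of 4.6 kcal/g from 12 weeks of age, and were 20 weeks old after 8 weeks of feeding. Protein gave 10% of the energy in each diet, as casein in the control diet, as complete dairy (skim milk powder) in the dairy diet, and as 7.1% casein with 2.9% leucine in the leucine diet. The series holds 2 arrays per diet, while the design text speaks of 4 rats per diet. The labels do not say whether the arrays of a diet are separate rats, so p-values measure the spread between these arrays, which may be technical.

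The values are log2 signals, on which a difference of 1 is a 2-fold difference, and fold changes are given on that scale. Fast-fibre transcripts, which define most of the gastrocnemius, had a lowest level of 8.26 for 11 measured genes over the casein arrays and stood above 11 on all others. Liver transcripts were checked because protocol texts mention liver, and 10 of the 15 measured lay above the median gene. Casein array 2 stood apart, with a mean correlation to the other arrays of 0.974, where the other arrays reached between 0.985 and 0.988. On it, slow-fibre transcripts had a median deviation from their gene means of −2.98, and liver transcripts one of 2.01. Many results against casein are therefore also given without it.

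All 68 members had a mean level above that of the median gene, 4.15. Their means ran from 4.29 for Mrpl32 to 9.32 for Mrpl42, with a median of 6.35. No filter on dim genes was applied, so every member entered the tests. Because every member is brighter than the median gene, the 7253 genes above that level are the second background beside all genes. Of the 68 members, 33 had the same deposited value, to the last digit, on 2 or more arrays, and for 16 of them it was shared by 3 or more. Such ties occurred in 44.2% of the brighter genes. The tied values make some differences exactly 0 and some spreads within a diet smaller than the array noise, and the step that produced them was not tested.

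**Figure D1:**
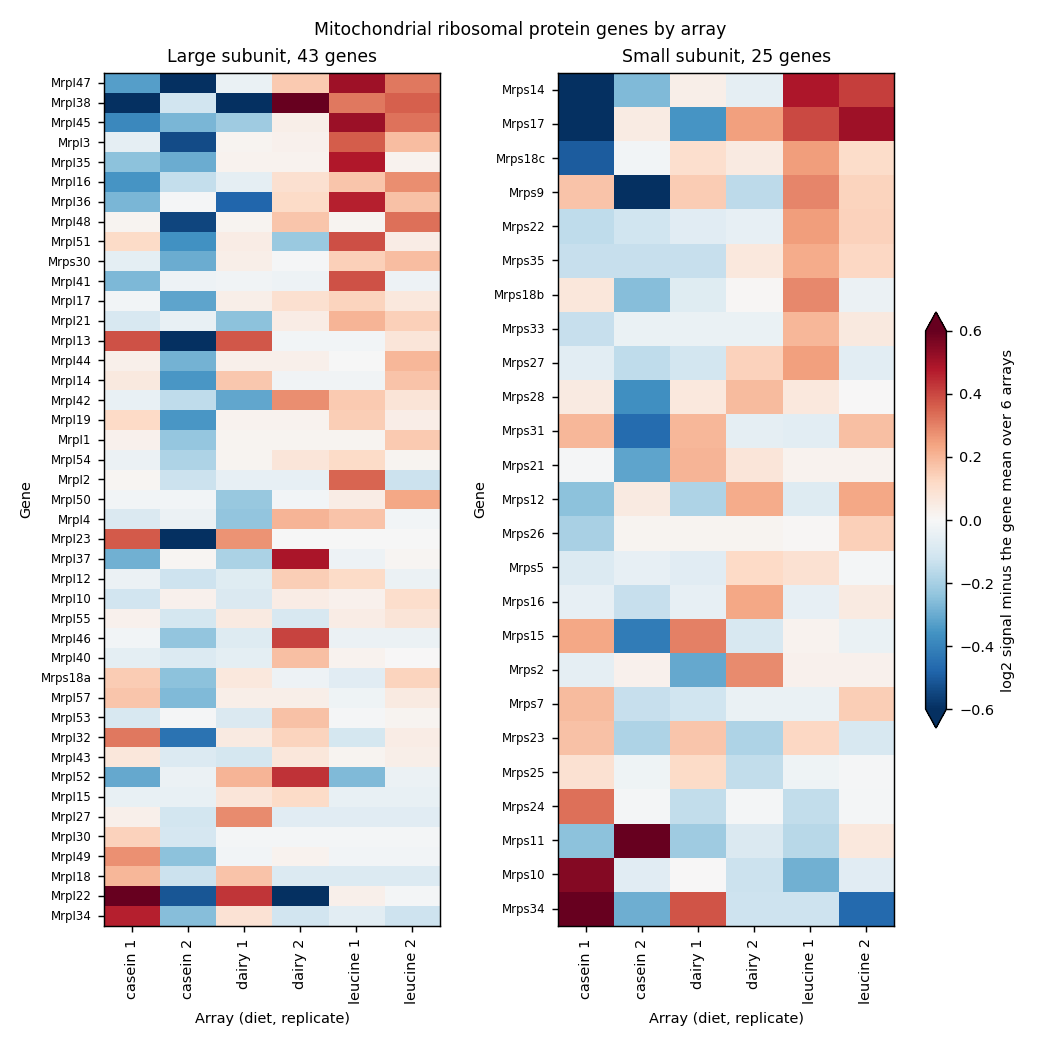
Log2 signal of each of the 68 genes on each of the 6 arrays, minus the gene's mean over the arrays. The 43 large-subunit and 25 small-subunit genes are ordered from the highest to the lowest difference between leucine and casein, colours saturate at 0.6, and casein array 2 is the bluest column, above the gene mean in 7 genes.

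The members differed most between the arrays of the casein diet. The median gap between the 2 casein arrays was 0.29 over the 68 genes, against 0.18 between the dairy arrays and 0.12 between the leucine arrays. In 40 members the casein pair had the widest gap of the 3 diets, which was so in 48.1% of the brighter genes. Only 7 of the 68 members lay above their gene mean on casein array 2, compared with 31 on casein array 1 and between 35 and 45 on the dairy and leucine arrays. In 36 members casein array 2 held the lowest of the 6 values, against 33.4% of the brighter genes and 22.1% of all genes. Mrpl22, a protein of the exit tunnel, had the widest casein gap, with 5.75 and 4.47 on the casein arrays, 5.41 and 4.28 with dairy and 5.01 and 4.97 with leucine. Its arrays overlapped between all diets. The dairy arrays differed most for Mrpl38, with 6.51 and 8.04, and the leucine arrays for Mrpl2, with 5.89 and 5.41.

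The first comparison asked how the members stood when part of the casein was replaced by free leucine. With leucine, 56 of the 68 members were higher, 11 were lower and 1 was equal, and the median log2 fold change was 0.17. After quantile normalization 48 were higher and the median was 0.11. The median over all 14506 genes was 0, and over the brighter genes it was 0.05, with 57.7% of them higher. None of the 68 passed the limma test (adjusted p under 0.05, 0% of all genes), and the lowest adjusted p among them was 0.353. At an unadjusted p under 0.05 there were 10 members higher, against 4.76% of all genes, and 0 lower, against 4.85%. Of the 7253 brighter genes, 569 were higher and 349 lower at that p. Both leucine arrays lay above both casein arrays in 24 members, or 35.3% of them, against 15.9% of all genes and 23.7% of the brighter ones, and in 0 members did they lie below, against 15.6% and 14.6%. Without casein array 2 the median was 0.08 with 44 members higher, and without casein array 1 it was 0.24 with 60 higher. The brighter genes had medians of 0.01 and 0.06 in these settings, with 3782 and 4156 of the 7253 higher. Taken array by array, the members' median difference was 0.07 and 0.06 for the leucine arrays against casein array 1, and 0.28 and 0.21 against casein array 2. Summed signals of the 11 slow-fibre genes were 13796 on one casein array and 2325 on the other, 12034 to 12111 with dairy and 13047 to 15676 with leucine. The 15 liver genes summed to between 1177 and 5004 with casein, 227 and 652 with dairy and 201 and 1658 with leucine. The part of these other transcripts in the members' difference was not tested, and in whole muscle fewer cells of a type cannot be told apart from less RNA per cell.

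The members that stood furthest from casein, relative to their error, came from both subunits. Mrpl47, the homologue of bacterial L29 beside the exit tunnel, had signals of 6.95 and 6.67 with casein, 7.24 and 7.44 with dairy and 7.79 and 7.60 with leucine. The diets did not overlap, and leucine stood 0.89 ± 0.14 (SE, n = 2 arrays per diet) above casein, a 1.85-fold difference with an adjusted p of 0.353 by limma. Here and below, errors come from the limma model of all 6 arrays, so they include the spread of the diet not compared. Mrps14, a protein of the small-subunit head, had 5.79 and 6.14 with casein, 6.44 and 6.35 with dairy and 6.89 and 6.82 with leucine. Its difference between leucine and casein was 0.88 ± 0.14 (SE), or 1.06 without casein array 2, again with no overlap. Mrpl45, which lies at the tunnel exit and ties the ribosome to the inner membrane, had 6.52 and 6.63 with casein, 6.69 and 6.94 with dairy and 7.42 and 7.23 with leucine. Leucine was 0.75 ± 0.12 above casein, and the casein arrays were the lowest of the 6. Without casein array 2 the differences were 0.75 for Mrpl47 and 0.80 for Mrpl45.

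Smaller differences were found in 5 further genes, of which Mrps30 and Mrpl3 were chosen for their role. Mrps22, specific to mitochondria, had 6.95 and 6.98 with casein, 7.03 and 7.05 with dairy and 7.35 and 7.24 with leucine. Its leucine arrays were the highest, 0.33 ± 0.07 above casein. Mrpl16, a homologue of bacterial L16 near the site where aminoacyl-tRNA enters, had 6.68 and 6.89 with casein, 6.98 and 7.13 with dairy and 7.20 and 7.31 with leucine, and leucine was 0.47 ± 0.11 above casein. Mrps35, another small-subunit protein without a bacterial homologue, read 5.33 on both casein arrays and on dairy array 1, 5.53 on dairy array 2 and 5.69 and 5.59 with leucine. Leucine was 0.31 ± 0.09 above casein, while casein and dairy shared a tied value. Mrps30, which despite its symbol sits in the large subunit, had 7.13 and 6.89 with casein, 7.22 and 7.18 with dairy and 7.33 and 7.37 with leucine, a difference between leucine and casein of 0.34 ± 0.10 that was 0.21 without casein array 2. Mrpl3, whose bacterial homologue lies by the peptidyl transferase centre, had 6.66 and 6.18 with casein, 6.73 and 6.74 with dairy and 7.08 and 6.90 with leucine. The difference was 0.57 ± 0.18, or 0.33 without casein array 2. For these 5 genes the adjusted p by limma lay between 0.366 and 0.462. Mrps17, Mrpl38 and Mrpl35, named after their values were seen, also had leucine arrays above casein without overlap. Their differences were 0.85 ± 0.37, 0.78 ± 0.57 and 0.52 ± 0.17, or 1.30, 1.12 and 0.50 without casein array 2.

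Other members with well-described roles showed smaller or less certain differences. Mrpl12, the stalk protein that also binds the mitochondrial RNA polymerase, had 5.88 and 5.79 with casein, 5.84 and 6.06 with dairy and 6.03 and 5.88 with leucine. The casein and leucine ranges met at 5.88, and the leucine difference was 0.12 ± 0.11, or 0.08 without casein array 2. Mrps12, the homologue of the decoding-centre protein S12, had 5.77 and 6.07 with casein, 5.83 and 6.24 with dairy and 5.94 and 6.25 with leucine, a difference of 0.18 ± 0.21 with overlapping arrays that was 0.33 without casein array 2 and 0.027 without casein array 1. Mrpl44, which has the fold of a ribonuclease, had 4.35 and 4.04 with casein, 4.35 on both dairy arrays and 4.32 and 4.52 with leucine, a difference of 0.23 ± 0.14 between overlapping arrays that was 0.07 without casein array 2. Mrpl36, a small homologue of bacterial L36, had 4.94 and 5.21 with casein, 4.74 and 5.33 with dairy and 5.68 and 5.39 with leucine, so that its leucine arrays lay above the others by 0.46 ± 0.25 over casein.

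The small-subunit protein S18 of bacteria has 3 homologues in rat mitochondria, and their genes did not stand alike. Mrps18c had 7.30 and 7.78 with casein, 7.90 and 7.85 with dairy and 8.05 and 7.91 with leucine, and the leucine difference from casein was 0.44 ± 0.18, or 0.68 against casein array 1 alone and 0.20 against casein array 2 alone. Mrps18b had 7.81 and 7.49 with casein, 7.67 and 7.75 with dairy and 8.03 and 7.71 with leucine, at 0.22 ± 0.17, or 0.06 without casein array 2. Mrps18a, whose protein occupies the large subunit, had 6.82 and 6.42 with casein, 6.73 and 6.64 with dairy and 6.60 and 6.80 with leucine, at 0.08 ± 0.16, or −0.12 without casein array 2. The arrays of casein and leucine were apart for Mrps18c and overlapped for the other two, and the differences among the 3 genes were not tested.

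By role, the medians of the 4 groups lay between 0.14 and 0.19 with all arrays, and between 0.04 and 0.15 without casein array 2. Of 24 large-subunit genes with a bacterial homologue, 18 were higher with leucine than with casein, with a median log2 fold change of 0.16; without casein array 2, 13 were higher and the median was 0.036. Of 18 mitochondria-specific large-subunit genes, 17 were higher, with a median of 0.17, against 15 and 0.13 without that array. Among small-subunit genes with a bacterial homologue, 13 of 16 were higher with a median of 0.14, and 11 with a median of 0.055 without that array. Among the small-subunit genes without one, 7 of 9 were higher with a median of 0.19, and 5 with a median of 0.15 without that array. Mrpl57, placed in neither class, stood at 0.06, or −0.15 without it. The groups were not tested against each other. Among the 11 members lower with leucine, the furthest from casein were Mrps34 and Mrps10, named after their values were seen. Mrps34 had 6.79 and 5.86 with casein, 6.53 and 6.03 with dairy and 6.03 and 5.69 with leucine, a log2 fold change of −0.46 ± 0.38. Mrps10 had 6.39 and 5.77 with casein, 5.84 and 5.71 with dairy and 5.55 and 5.77 with leucine, a log2 fold change of −0.42 ± 0.23. In both, casein array 1 was the highest of the 6, and against casein array 2 alone the difference was −0.00029 for Mrps34 and −0.11 for Mrps10, while against casein array 1 alone it was −0.92 and −0.73.

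The promoters of the members were searched for motifs of 3 factors known to act on nuclear genes for mitochondrial proteins. Whether members with a motif differed more between diets was not tested. RefSeq promoters of build GRCr8, from 250 bases before to 50 bases after the start site, were found for 54 of the 68 genes. On both strands the search used GCGCA, any 1 base and GCGC for NRF1, CCGGAAG for the ETS family to which GABPA belongs, and AAGATGGC for YY1, and in 0 members did matches of different motifs share bases. The NRF1 letters were found in 9 member promoters (16.7%), the ETS letters in 18 (33.3%) and the YY1 letters in 14 (25.9%). The shares among the 11970 tested genes with a promoter in the same table were 7.39%, 12.9% and 4.23%. At least 1 motif was found in 30 members, or 55.6%, against 21.5% of those genes, and the median GC content was 56.2% and 58%. Shares among the brighter genes alone, or among other nuclear genes for mitochondrial proteins, were not counted. Of the 14 YY1 matches, 11 began at or after the start site, while 13 of 20 ETS matches and 10 of 11 NRF1 matches began before it. A match describes letters and is not evidence of binding. Mrpl46 and Mrps11 start on opposite strands of chromosome 1, and their windows share 267 bases.

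The 4 promoters below belong to the members named here that hold a match and had the smallest p in any comparison, and they show where the letters lie. Each runs 5′ to 3′ on the strand of its gene, from 250 bases before the start site to 30 bases after it, with the matches in capitals. Mrpl45 (chr10:82804789-82805068, plus strand) has NRF1 matches that begin 229 and 145 bases before the start site. Mrps30 (chr2:52195875-52196154, minus strand) has a YY1 match that begins 18 bases after it. Mrpl3 (chr8:114548720-114548999, plus strand) has an ETS match 10 bases after it. Mrpl52 (chr15:31852686-31852965, plus strand), a gene that stood highest with dairy, has ETS matches 49 bases before and 1 base after it, both read on the opposite strand.
Mrpl45: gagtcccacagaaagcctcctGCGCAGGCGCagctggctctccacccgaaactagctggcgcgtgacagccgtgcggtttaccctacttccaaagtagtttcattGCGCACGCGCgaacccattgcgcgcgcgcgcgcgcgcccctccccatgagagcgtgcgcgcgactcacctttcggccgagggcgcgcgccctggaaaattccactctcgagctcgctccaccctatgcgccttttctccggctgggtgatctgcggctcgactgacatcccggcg
Mrps30: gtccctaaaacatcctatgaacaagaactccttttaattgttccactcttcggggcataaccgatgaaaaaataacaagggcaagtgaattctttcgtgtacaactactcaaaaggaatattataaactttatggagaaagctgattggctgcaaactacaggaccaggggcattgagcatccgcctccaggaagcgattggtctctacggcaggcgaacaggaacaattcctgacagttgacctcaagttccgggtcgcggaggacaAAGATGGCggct
Mrpl3: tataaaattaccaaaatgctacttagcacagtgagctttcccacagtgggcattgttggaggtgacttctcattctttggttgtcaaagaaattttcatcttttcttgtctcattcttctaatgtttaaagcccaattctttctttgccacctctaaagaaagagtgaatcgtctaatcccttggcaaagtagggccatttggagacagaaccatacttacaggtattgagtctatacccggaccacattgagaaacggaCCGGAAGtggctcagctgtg
Mrpl52: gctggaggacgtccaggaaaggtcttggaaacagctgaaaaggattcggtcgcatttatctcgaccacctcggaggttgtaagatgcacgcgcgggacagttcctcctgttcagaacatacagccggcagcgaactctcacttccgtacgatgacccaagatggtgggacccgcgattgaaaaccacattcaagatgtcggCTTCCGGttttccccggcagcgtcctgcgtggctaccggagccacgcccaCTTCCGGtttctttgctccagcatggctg
Mrps14 and Mrpl47, which stood furthest from casein, had none of the 3 motifs in their windows.

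The second comparison asked how the members stood with complete dairy protein in place of casein. With dairy, 54 of the 68 members were higher and 14 lower, with a median log2 fold change of 0.12. The brighter genes as a whole had a median of 0.10, with 70.4% of them higher, so the members lay close to that background. None of the 68 passed the limma test (adjusted p under 0.05, 0% of all genes), with a lowest adjusted p of 0.833. At an unadjusted p under 0.05, 3 members were higher, against 2.49% of all genes, and 0 lower, against 2.31%. Of the 7253 brighter genes, 303 were higher and 68 lower at that p, so the members' share higher lay close to theirs. In 16 members, or 23.5%, both dairy arrays lay above both casein arrays, against 11.5% of all genes and 18.6% of the brighter ones, and in 0 members below, against 11.7% and 4.81%. After quantile normalization 39 of the 68 were higher with a median of 0.03, and the brighter genes had a median of 0.01. Without casein array 2 the median was 0.07 with 39 higher, and without casein array 1 it was 0.18. The brighter genes had medians of 0.06, with 4541 of the 7253 higher, and 0.10 in these settings. Against casein array 1 the members' median difference was 0 for dairy array 1 and 0.09 for dairy array 2, and against casein array 2 it was 0.14 and 0.24.

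Mrpl47 and Mrps14, whose signals are given above, were among the 3 with the smallest p, at 0.53 ± 0.14 and 0.43 ± 0.14 above casein, the latter 0.25 without casein array 1. Mrpl52, a mitochondria-specific protein of the large subunit, had 6.35 and 6.62 with casein, 6.86 and 7.09 with dairy and 6.39 and 6.62 with leucine. Dairy was 0.49 ± 0.15 above casein, a 1.41-fold difference, and the leucine arrays repeated the casein range. Mrpl15 had 6.61 on both casein arrays and both leucine arrays and 6.73 and 6.77 with dairy, a difference of 0.14 ± 0.06 against 4 tied values. Mrps21, a homologue of bacterial S21, had 6.26 and 5.95 with casein, 6.47 and 6.34 with dairy and 6.29 on both leucine arrays. Dairy was 0.30 ± 0.12 above casein, or 0.15 without casein array 2, and leucine lay between them. Mrpl16 stood 0.27 ± 0.11 above casein with dairy, or 0.16 without casein array 1.

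The third comparison set leucine against dairy, and its fold changes used no casein array. Its errors and p-values came from the limma model of all arrays, so they include the spread between the casein arrays. With leucine 46 of the 68 members were higher, 21 lower and 1 equal, with a median log2 fold change of 0.06. The brighter genes had a median of −0.03, with 42.9% of them higher. After quantile normalization the members' median was 0.11, and the brighter genes had 0.01. With array medians set equal, which shifts every gene by the same amount, these medians were 0.13 and 0.035. The members' median lay between 0.03 and 0.08, with 36 to 46 members higher, when any of the 4 arrays was left out. Against dairy array 1 it was 0.09 for leucine array 1 and 0.05 for leucine array 2. There 40 and 45 members were higher, against 42.1% and 39.5% of the brighter genes. Against dairy array 2 the medians were 0 and 0.02, with 31 and 36 members higher, against 43.9% and 39.1%. None of the 68 passed (adjusted p under 0.05, 0% of all genes), with a lowest adjusted p of 0.628 by limma. At an unadjusted p under 0.05, 3 members were higher, against 2.25% of all genes, and 1 lower, against 3.45%. Of the 7253 brighter genes, 179 were higher and 393 lower at that p. The leucine arrays lay above both dairy arrays in 16 members, or 23.5%, against 13.4% of all genes and 14.2% of the brighter ones. They lay below in 5 members, or 7.35%, against 14.9% and 20.8%.

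Mrpl45 stood 0.51 ± 0.12 above dairy with leucine, Mrps14 0.46 ± 0.14, Mrpl47 0.36 ± 0.14 and Mrps22 0.25 ± 0.07. Mrpl50, specific to mitochondria, had 4.27 and 4.48 with dairy and 4.54 and 4.73 with leucine, 0.26 ± 0.11 higher. Mrpl21, a homologue of bacterial L21, had 7.11 and 7.40 with dairy and 7.56 and 7.50 with leucine, 0.27 ± 0.11 higher. The 5 members whose leucine arrays lay below the dairy arrays were Mrpl52, Mrpl15, Mrps21, Mrps28 and Mrpl32. Mrpl52 had a log2 fold change of −0.47 ± 0.15 and Mrpl15 one of −0.14 ± 0.06. Mrps28, which is related to bacterial S1, had 6.40 and 6.53 with dairy and 6.40 and 6.34 with leucine, and Mrpl32, which a protease of the inner membrane must cut before assembly, had 4.34 and 4.42 with dairy and 4.18 and 4.33 with leucine. Both of these differences were smaller than their errors, at −0.09 ± 0.16 and −0.12 ± 0.27. The errors include the casein arrays, which differed most in both genes. For Mrps28 the SD was 0.30 with casein, 0.092 with dairy and 0.037 with leucine. For Mrpl32 it was 0.53, 0.056 and 0.11.

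In 8 members the arrays of the 3 diets did not overlap and stood in the order casein, dairy, leucine: Mrpl3, Mrpl16, Mrpl45, Mrpl47, Mrps14, Mrps18c, Mrps22 and Mrps30. That is 8 of 68, where 1.96% of all genes and 3.5% of the brighter genes had this order. Of the other orders, casein, leucine, dairy was found in 1 member, Mrps21, against 0.51% of all genes and 0.841% of the brighter genes. The 4 orders in which casein was not lowest were found in 0 members. They were rare in the backgrounds too, each with 0.434% to 1.17% of all genes and 0.152% to 1.61% of the brighter genes. The count of ordered members was examined after the values were seen, and it depended on scaling. With array medians set equal it was 15, among them the same 8, against 10.5% of the brighter genes. After quantile normalization it was 3, and Mrpl47 and Mrps14 were the 2 shared with the deposited scale, against 2.5% of the brighter genes.

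**Figure D2:**
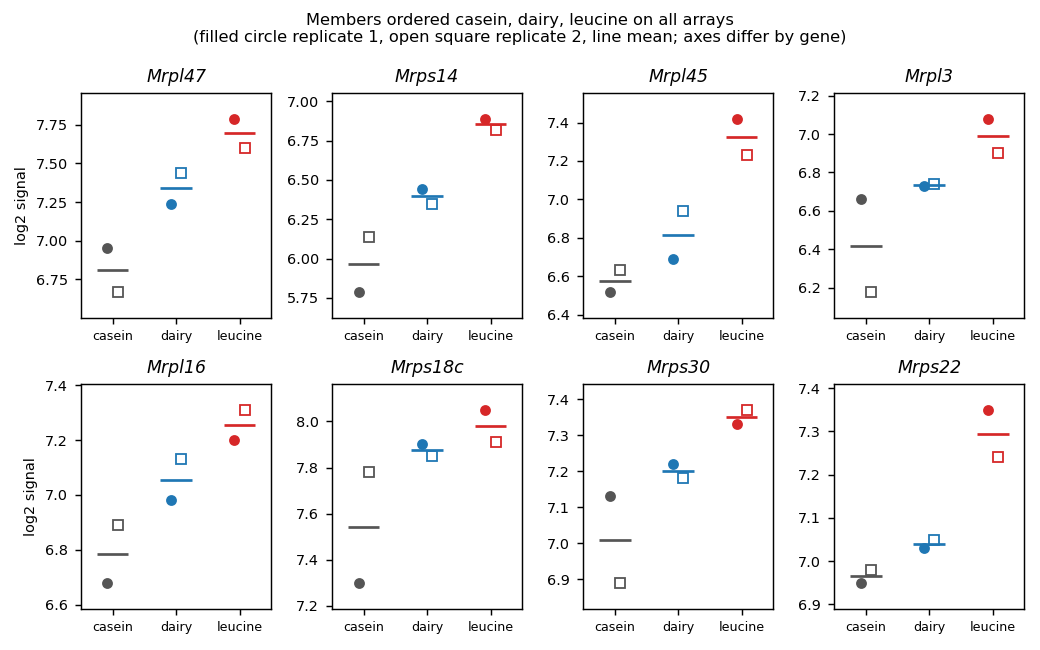
Log2 signal on each array for the 8 genes whose arrays stood in the order casein, dairy, leucine without overlap, with the mean of each diet as a line. The y axes differ by gene; the widest step is that of Mrpl47, from 6.67 and 6.95 with casein to 7.60 and 7.79 with leucine.

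**Figure D3:**
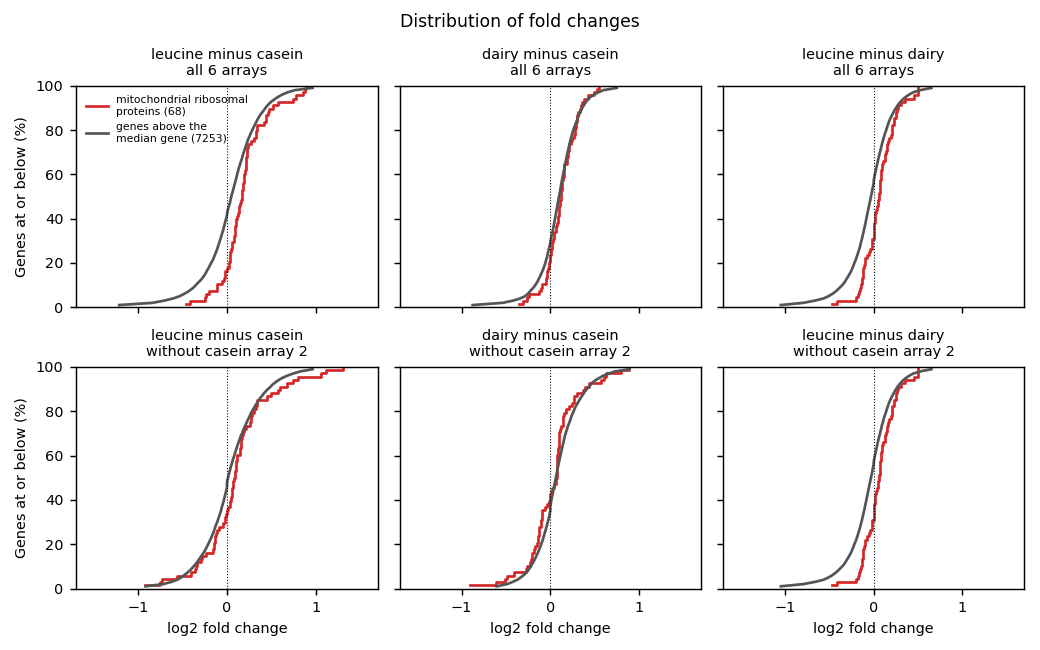
Cumulative share of genes (y, in percent) at or below each log2 fold change (x) for the 68 mitochondrial ribosomal protein genes and the 7253 genes above the median gene, in each comparison with all arrays and without casein array 2. For leucine against dairy both panels are the same, since no casein array enters its fold changes. The members lie right of the brighter genes for leucine against dairy (medians 0.06 and −0.03) and close to them for dairy against casein (0.12 and 0.10).

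For 4 members a further row of the table carried the same symbol and was not used above. Both rows of Mrpl40 and of Mrpl41 stood on the same side of casein, with log2 fold changes for leucine of 0.08 and 0.03 for Mrpl40 and 0.32 and 0.38 for Mrpl41. For Mrpl41 these were 0.20 and 0.20 without casein array 1. The row of Mrpl42 used here had 9.28 and 9.17 with casein and 9.48 and 9.40 with leucine, and the other row had 5.29 and 5.27 with casein and 6.09 and 5.58 with leucine, so that both were higher with leucine. The rows of Mrps11 disagreed with all arrays and not without casein array 2. The row used had 5.78 and 6.67 with casein and 5.86 and 6.09 with leucine (−0.25), and the other had 5.77 and 5.13 with casein and 6.09 and 5.56 with leucine (0.37), with casein array 2 the higher casein array in the first and the lower in the other. Without casein array 2 both stood above casein, at 0.19 for the row used and 0.05 for the other. Which row reports the gene, and whether either reads a copy elsewhere in the genome, was not tested.

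Genes listed as mitochondrial translation factors, among them Taco1, Lrpprc and Slirp, also stood mostly above casein. Of 17 listed mitochondrial translation factors 11 were measured, and all 11 were higher with leucine than with casein, with a median log2 fold change of 0.36 that was 0.23 without casein array 2. In each of the 11 both leucine arrays lay above both casein arrays, where 15.9% of all genes and 23.7% of the brighter genes did. An unadjusted p under 0.05 was found in 7, all higher, against 4.76% of all genes and 569 of the 7253 brighter genes. By limma 0 passed the adjusted threshold. Gfm2, the factor that helps split the ribosome after termination, had 5.99 and 5.56 with casein, 5.99 and 6.14 with dairy and 6.57 and 6.41 with leucine, 0.71 ± 0.17 above casein and 0.50 without casein array 2. Guf1, a relative of the bacterial factor LepA, had 7.34 and 6.99 with casein, 7.51 and 7.58 with dairy and 7.81 and 7.66 with leucine, 0.57 ± 0.14 above casein. Tufm, the elongation factor Tu, had 7.78 and 7.54 with casein, 7.53 and 8.12 with dairy and 7.93 and 7.91 with leucine, and its leucine difference of 0.26 ± 0.22 was 0.14 without casein array 2. Against dairy, 10 of the 11 were higher with leucine with a median of 0.19. Gfm1, the elongation factor G, stood 0.36 ± 0.13 and Taco1, an activator of cytochrome oxidase translation, 0.39 ± 0.13 above dairy. Dairy against casein gave 10 of 11 higher and a median of 0.16, or 7 of 11 and 0.08 without casein array 2. Mrrf, the recycling factor, had the smallest p there, with 6.70 and 6.71 with casein, 7.09 and 6.99 with dairy and 6.97 and 6.94 with leucine. Dairy was 0.33 ± 0.07 above casein, and the casein arrays were the lowest.

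Of 25 listed assembly factors 21 were measured, 18 of them higher with leucine than with casein, with a median of 0.15. Without casein array 2, 13 were higher and the median was 0.098. The 2 with the smallest p were Noa1, a GTPase of small-subunit assembly, and Ybey, a homologue of a bacterial ribonuclease. Noa1 had 4.75 on both casein arrays, 4.62 and 4.68 with dairy and 4.97 and 5.09 with leucine, 0.29 ± 0.07 above casein and 0.39 ± 0.07 above dairy. Ybey had 3.54 and 3.48 with casein, 3.43 and 3.54 with dairy and 4.14 and 3.74 with leucine. Its mean level, 3.64, lay below that of the median gene, 4.15. Tfb1m, the methyltransferase of the small-subunit RNA, had 5.21 and 5.90 with casein, 5.48 and 5.71 with dairy and 5.69 and 5.59 with leucine, and its arrays overlapped between all diets. With dairy, 14 of the 21 were higher than with casein, with a median of 0.11. That median was −0.0053 with 10 higher without casein array 2, and 0.0037 with 12 higher without casein array 1. Ddx28 and Rpusd4, both of large-subunit assembly, had the smallest p for dairy, at 0.25 ± 0.11 and 0.28 ± 0.16, or 0.11 and 0.095 without casein array 2.

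Of the 6 genes of mitochondrial transcription 5 were higher with leucine than with casein, with a median of 0.41, or 0.46 without casein array 2. Tfb2m, which opens the mitochondrial promoter, had 6.95 and 7.09 with casein, 7.13 and 7.25 with dairy and 7.80 and 7.65 with leucine. Tefm, the elongation factor of the mitochondrial RNA polymerase, had 4.81 and 4.64 with casein, 4.81 on both dairy arrays and 5.23 and 5.26 with leucine. Their leucine arrays were above all others, by 0.71 ± 0.10 and 0.52 ± 0.08 over casein and by 0.54 ± 0.10 and 0.44 ± 0.08 over dairy, with an adjusted p of at least 0.353 by limma for each. Polrmt, the polymerase itself, was the lower one, with 4.91 and 4.84 with casein, 4.84 and 4.95 with dairy and 4.69 and 4.67 with leucine. Its leucine arrays were below all others, at −0.20 ± 0.07 against casein and −0.21 ± 0.07 against dairy. Mterf1, a termination factor, had the smallest p of this list for dairy against casein, at 0.37 ± 0.14. Its mean level, 3.64, lay below that of the median gene, 4.15. Among 5 mitoribosome subunits that carry other names, Ptcd3 had 6.63 and 6.26 with casein, 6.74 and 6.95 with dairy and 7.16 and 7.05 with leucine, 0.66 ± 0.16 above casein, and 0.40 ± 0.16 above it with dairy, the latter 0.22 without casein array 2. Dap3, the GTP-binding protein of the small subunit, had 4.98 and 4.81 with casein, 5.0 and 4.72 with dairy and 5.15 and 5.18 with leucine, 0.27 ± 0.12 above casein and 0.31 ± 0.12 above dairy. The 5 stood on both sides of casein, 3 higher and 2 lower with leucine at a median of 0.11, or 2 higher at a median of −0.06 without casein array 2.

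Cytosolic ribosomal protein genes, the nearest counterpart, had a median of the opposite sign between leucine and dairy. Of 71 such genes 16 were higher with leucine than with dairy, and their median log2 fold change was −0.15, beside 46 of 68 and 0.06 for the mitochondrial ones. After quantile normalization the 2 medians were −0.14 and 0.11. With array medians set equal, which shifts every gene by the same amount, they were −0.09 and 0.13. Against casein the cytosolic median with leucine was −0.01, and it was 0.10 with array medians set equal, −0.10 after quantile normalization and −0.10 without casein array 2. With dairy it was 0.13, and it was 0.027 after quantile normalization and 0.046 without casein array 2. Subunits of complex I, which holds several products of the mitoribosome, were higher with leucine than with casein in 29 of 33 genes, with a median of 0.17 that was −0.05 without casein array 2, where the members' median was 0.08. Against dairy the complex I median was 0.05. The lists were not tested against each other.

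**Figure D4:**
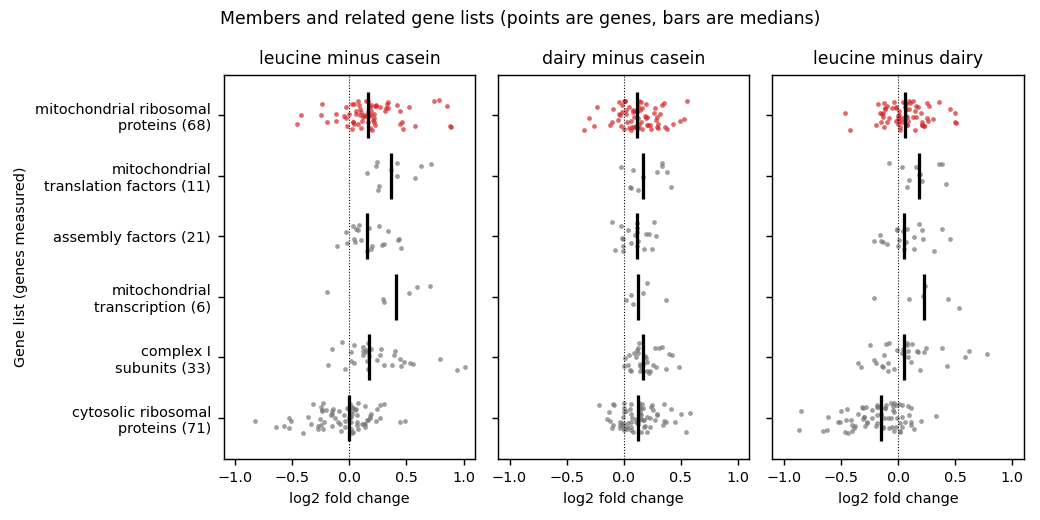
Log2 fold change (x) of each gene of the members, 3 lists of mitochondrial gene expression, complex I subunits and cytosolic ribosomal proteins, in the 3 comparisons, with medians as black bars. For leucine against casein the translation factors have a median of 0.36, the transcription genes 0.41 and the members 0.17, and for leucine against dairy the cytosolic ribosomal proteins lie left of 0 with a median of −0.15.

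Markers of other cells of muscle differed between the same diets. The 11 measured fibroblast and matrix genes were lower with leucine than with casein in 11 of 11, with summed signals of 1284 to 1392 with leucine, 2889 to 3018 with casein and 3059 to 4126 with dairy. All 14 macrophage and leukocyte genes stood below casein in the leucine diet, with a median log2 fold change of −0.60, and sums of 392 to 405 with leucine, 470.4 to 1124 with casein and 669.6 to 682 with dairy. Without casein array 2 that median was −0.14 and 6 of the 14 were higher with leucine, while against dairy 14 of 14 were lower. Of 8 adipocyte genes 7 were lower with leucine than with casein, with a median of −0.69, or −0.39 without casein array 2, and 8 were lower than with dairy, with a median of −0.63. Their sums were 281 to 458 with casein, 248 to 483 with dairy and 214 to 234 with leucine. Of 7 endothelial genes 6 were higher with dairy than with casein, with a median of 0.54, or 5 and 0.41 without casein array 2, and 4 were higher with leucine, with a median of 0.25 that was 0 without that array. Their sums were 471 to 515 with casein, 617 to 668 with dairy and 509.7 to 548 with leucine. No marker of these lists was at 0, and the lowest marker level was 2.16. The part of these cells in the members' differences was not tested.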

How the data were processed

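The deposited values were log2 signals, 1 per transcript cluster and array. The submitters' processing notes name Affymetrix Expression Console; its version, background correction and normalization are not given in the sources used here. Of 29214 rows, 15633 had a gene entry and 15310 a single gene. Symbols were updated through RefSeq gene identifiers, and the brightest row per symbol was kept, which left 14506 genes. All 6 arrays entered a single limma model with diet as its term (limma 3.58.1, R 4.3.3; 3 residual degrees of freedom), and contrasts between diets were tested with Benjamini-Hochberg adjustment over all genes and a threshold of 0.05. The fit was tested on simulated data. With 2 arrays per diet, their number limits the precision. A median over the members is a description without a test.

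Per comparison, up to 6 members in each direction with the smallest p among those whose arrays did not overlap were named, plus 12 members chosen for their role, of which Mrps36 had no row, and up to 2 genes per related list. Members, lists and rules were chosen with earlier results of these data known. Alternatives were quantile normalization, equal array medians, a filter on dim genes, averaged rows, a trended prior, no variance moderation, only the arrays compared, a replicate block, added subunits, and leaving out each array.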

Additional observations from a re-analysis of the deposited data

How the results depend on the processing

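The count of members past the threshold was 0 in each comparison under every alternative run. At an unadjusted p under 0.05 limma gave 10, 3 and 4 members for leucine against casein, dairy against casein and leucine against dairy. Over all genes the count was 0 in each comparison by limma, with 1394, 696 and 827 genes at an unadjusted p under 0.05; without variance moderation it was 7, 2 and 6, and without casein array 1 it was 1 in both comparisons with casein. The members' median moved by more than the spread of the array medians (SD 0.0516) under some settings. For leucine against casein it was 0.11 after quantile normalization, 0.27 with array medians set equal, where the median of all genes moved to 0.10, and 0.081 to 0.24 with an array left out. For dairy against casein it was 0.031 after quantile normalization and 0.18 without casein array 1; the lowest value with an array left out, 0.069, lay within that spread. For leucine against dairy it was 0.13 with array medians set equal, where the median of all genes moved to 0.07. The members' median stayed above 0 in each of these. Setting array medians equal raised all genes by the same amount, so it could not have turned that sign. The correlations of replicate differences between diets were 0.09, 0.18 and 0.05, so replicate numbers were treated as names without pairing. A replicate block cannot change fold changes in this balanced design, so the medians of 0.17, 0.12 and 0.06 are no check on pairing. With the block 0 genes passed.

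Signs turned for several named genes. Mrps11, whose rows are described above, stood at −0.25 for leucine and −0.35 for dairy against casein, and at 0.19 and 0.093 without casein array 2. Mrps18a for leucine against casein was −0.00077 after quantile normalization and −0.12 to 0.28 with an array left out. Tfb1m was −0.26 to 0.43 for leucine against casein, −0.30 to 0.39 for dairy against casein (−0.047 after quantile normalization) and −0.075 to 0.16 for leucine against dairy with an array left out. Tufm was −0.13 to 0.46 for dairy against casein and −0.20 to 0.39 for leucine against dairy, and Dap3 −0.18 to 0.10 for dairy against casein. Beyond the construction of these settings the cause was not tested.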
